A study of Mus musculus with 6 samples.

Results

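The Notch genes examined here were the receptor genes Notch1, Notch2, Notch3 and Notch4, the ligand genes Jag1, Jag2, Dll1 and Dll4, and the transcription factor genes Hes1 and Hey1, which Notch signalling switches on. They were found in mouse tongue arrays as every non-control probe whose RefSeq accession belongs to one of the genes, which gave 12 of 55681 probes and found 10 of 10 genes, out of 21368 genes named on the array. RNA came from 3 iDek mice given doxycycline (DOX) for 2 weeks and 3 iDek mice left untreated, all on a C57Bl6 background, and each was hybridised to 1 single-colour Agilent array. According to the genotype label DOX induces Dek, a chromatin protein, in iDek mice. The label calls this induction both ubiquitous and squamous cell-specific. The driver of the transgene, the ages of the mice and the DOX dose are not given in the sources used here, and the series title mentions a carcinogen that no sample label names. DOX is an antibiotic, and every mouse carried the transgene, so an effect of DOX and an effect of Dek induction cannot be told apart in this design.

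Notch receptors are membrane proteins that bind ligands of the Delta and Jagged families on a neighbouring cell. Binding leads to 2 successive cuts, by ADAM proteases and by gamma-secretase, and the freed intracellular part joins the DNA-binding protein RBPJ and a Mastermind coactivator to switch on genes of the Hes and Hey families of repressors. In stratified epithelium Notch signalling promotes the step from basal to suprabasal keratinocyte, and Jag1, Jag2, Dll1, Notch1 and Notch2 act there. In vessels Notch1, Notch4, Dll4 and Hey1 act in endothelial cells and Notch3 in the surrounding mural cells.

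The promoter sequences of the genes with the 3 smallest p-values among the 10 are given first, so that motifs of RBPJ and of Hes proteins can be read in them. They come from RefSeq on build GRCm38.p6, run 5′ to 3′ from 250 bases before to 50 bases after an annotated start site, and were matched for 8 of the 10 genes in 9 windows (Hes1 and Hey1 are not among them). Capitals mark CACNAG on either strand, a sequence that Hes proteins can bind, called the N-box.
Notch1 (chr2:26503773-26504072, - strand): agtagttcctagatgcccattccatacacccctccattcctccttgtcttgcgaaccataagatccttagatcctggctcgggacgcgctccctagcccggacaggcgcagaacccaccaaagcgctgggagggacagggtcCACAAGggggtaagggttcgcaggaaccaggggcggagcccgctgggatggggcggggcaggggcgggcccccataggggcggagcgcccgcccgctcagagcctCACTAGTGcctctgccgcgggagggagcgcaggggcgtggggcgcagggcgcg
Jag1 (chr2:137116471-137116770, - strand): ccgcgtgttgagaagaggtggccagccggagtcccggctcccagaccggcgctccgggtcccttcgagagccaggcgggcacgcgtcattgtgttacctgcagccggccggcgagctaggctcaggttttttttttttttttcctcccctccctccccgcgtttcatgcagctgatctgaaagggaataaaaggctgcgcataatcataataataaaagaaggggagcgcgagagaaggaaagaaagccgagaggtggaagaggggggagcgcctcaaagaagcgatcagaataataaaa
Dll1 (chr17:15376883-15377182, - strand): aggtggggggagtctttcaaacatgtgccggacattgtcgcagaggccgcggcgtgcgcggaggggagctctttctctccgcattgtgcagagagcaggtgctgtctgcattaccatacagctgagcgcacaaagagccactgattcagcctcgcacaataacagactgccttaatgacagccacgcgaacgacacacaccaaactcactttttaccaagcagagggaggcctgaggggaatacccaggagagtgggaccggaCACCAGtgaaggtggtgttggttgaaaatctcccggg
Notch1 held 3 matches to CACNAG, beginning at bases -108, -3 and -1 counted from the start site, of which the last 2 overlap on opposite strands. Dll1 held 1 match, beginning at base 14 after its start, and Jag1 held 0. Dll1 has another annotated start on the same strand, whose window (chr17:15375774-15376073) held 0 and is not printed. Matches to CACNAG were found in windows of 5 of the 8 genes, and 42.5% of all 32851 promoter windows hold one, so the motif is common. GTGGGAA, the core of the RBPJ recognition sequence, was searched on both strands and had 0 matches in the 9 windows, where 6.38% of all windows hold it. Of 7 further Hes and Hey genes, 4 were matched, and GTGGGAA was found in those of Hes5, Hes7 and Hey2. Most windows hold none, so its absence from the 9 does not set them apart. Hes5 and Hes7 are shown with GTGGGAA in capitals, as examples of windows that hold it.
Hes5 (chr4:154960673-154960972, + strand): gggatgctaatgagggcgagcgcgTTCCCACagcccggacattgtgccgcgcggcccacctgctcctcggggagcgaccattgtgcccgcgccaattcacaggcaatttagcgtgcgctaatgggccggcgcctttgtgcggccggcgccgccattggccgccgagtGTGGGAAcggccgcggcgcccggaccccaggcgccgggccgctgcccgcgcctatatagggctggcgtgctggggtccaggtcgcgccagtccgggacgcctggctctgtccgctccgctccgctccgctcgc
Hes7 (chr11:69120203-69120502, + strand): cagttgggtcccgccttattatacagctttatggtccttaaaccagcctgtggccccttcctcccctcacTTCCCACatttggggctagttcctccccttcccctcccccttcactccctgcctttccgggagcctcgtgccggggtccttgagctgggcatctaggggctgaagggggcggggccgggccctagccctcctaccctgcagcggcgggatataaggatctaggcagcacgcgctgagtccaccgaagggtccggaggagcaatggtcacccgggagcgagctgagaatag
Hes5 held GTGGGAA on its own strand from base -83 and on the opposite strand from base -226. Hes7 held 1 match, on the opposite strand from base -180. These are matches of letters in a short window and do not show that a protein binds there.

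The share of probes that the scanner called well above background was 56.0% to 58.3% per array, and 0 spots were saturated. The precision of every value is set by there being 3 arrays in a group. Dek was read by 1 probe and averaged 2.37 ± 0.08 normalised log2 signal with DOX and 2.20 ± 0.10 without (SD, n = 3 each), a log2 difference of 0.17 ± 0.11 (SE) that missed the threshold (limma, adjusted p = 0.456). The groups overlapped, so this probe did not show a clear rise of Dek with DOX. The sources used here do not say which part of Dek the transgene carries. Whether the probe reads the transgene is thus not known, and it does not check the labels. The lists fixed for keratinocytes and skeletal muscle were present in full, with 7 of 7 basal, 8 of 8 suprabasal and 8 of 8 muscle markers well above background on all 6 arrays. Over all 30935 tested probes, 86 rose and 38 fell with DOX (limma, Benjamini-Hochberg adjusted p under 0.05), which is 0.401% of them in all, 0.278% higher and 0.123% lower.

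All 10 Notch genes had a lower mean signal with DOX, and 0 of the 10 passed the test over all probes (limma, smallest adjusted p = 0.103). The sign of 3 differences turned under 1 alternative each, Notch4 and Hey1 to 0.03 with 1 mouse left out, and Jag2 to 0.01 with the slide row as a block, which was chosen after seeing the data. Row 2 held only DOX replicates 2 and 3, so that block compares DOX replicate 1 alone with the mice without DOX. The median log2 difference of the 10 was -0.33, against -0.006 over all tested probes, of which 51% had a lower mean with DOX. Over the 15211 tested genes with a symbol, 1 probe each, the median was 0.009 and 48.6% had a lower mean. Without correction for multiple testing, 3 of 10 had a p under 0.05, all lower, beside 18.8% of all tested probes in either direction and 9.62% lower. The 3 DOX values lay below the 3 values without DOX for 4 of 10 genes, and 12.7% of all tested probes had that arrangement, 25.5% counting both directions. These shares describe the 10 genes and test nothing over them. Each value below is a normalised log2 signal, the log2 of the processed signal of the probe minus the 75th percentile of its array, so that 0 is the brightness at that percentile. Values of different genes come from different probes and are not compared. The tissue was measured in bulk, so fewer cells of a type and less RNA per cell cannot be told apart.

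**Figure D1:**
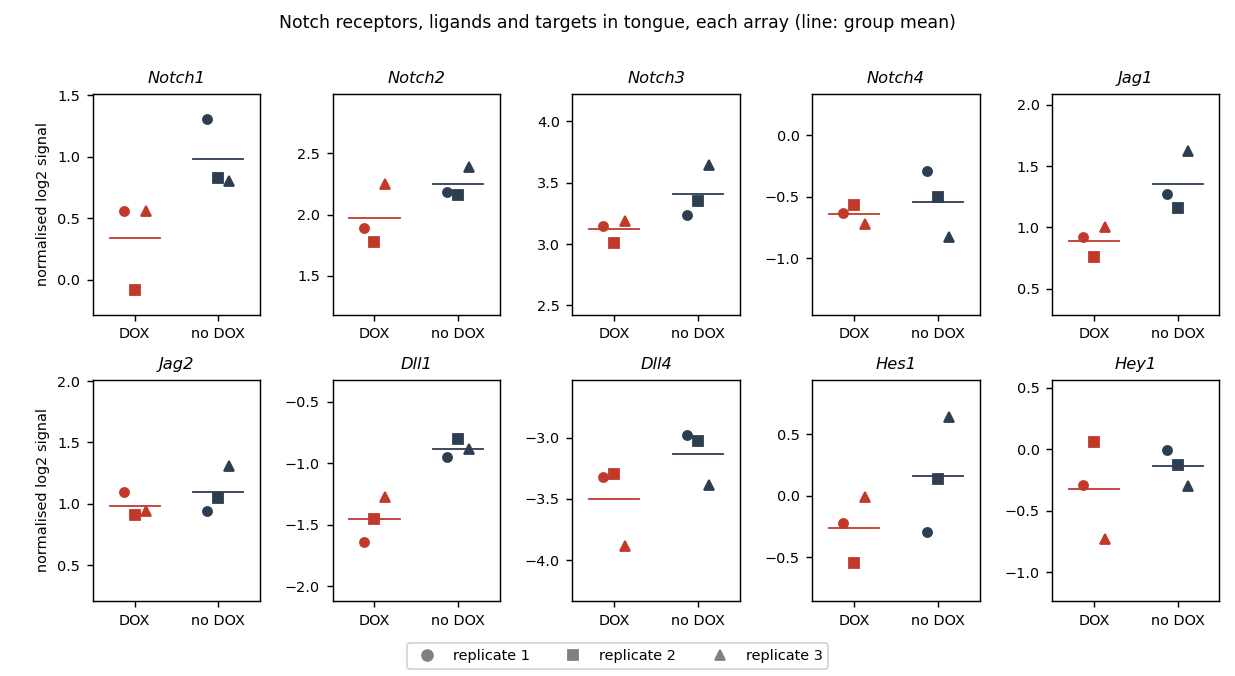
Normalised log2 signal of each of the 10 genes on each array, with DOX on the left and no DOX on the right of each panel. Each symbol is 1 mouse and each line a group mean, and every panel spans the same height on the log2 axis. The groups do not overlap for Notch1, Notch3, Jag1 and Dll1.

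Among the receptors the widest difference was that of Notch1, the receptor most used in stratified epithelium. Its bright probe read 0.56, -0.08 and 0.56 in DOX replicates 1 to 3 and 1.31, 0.83 and 0.80 in no DOX replicates 1 to 3. The groups did not overlap, and DOX replicate 2 was the lowest of the 6 mice. The processed signals behind these values were 366, 237 and 381 with DOX and 655, 436 and 428 without. The log2 difference was -0.63 ± 0.23 (SE), a ratio of 0.644 with a 95% interval from 0.440 to 0.944, and it did not pass (limma, adjusted p = 0.219). An exact two-sided permutation test gave p = 0.1 for Notch1, as for the other genes whose groups did not overlap, and 0.1 is the smallest value that 3 against 3 mice can give. The other probe of Notch1 was well above background on 1 DOX array and 1 no DOX array and was not tested. Its signals lay between 8.76 and 14.4 in both groups, so the Notch1 result rests on the bright probe.

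Notch3, the receptor of vascular mural cells, read 3.15, 3.01 and 3.19 with DOX and 3.24, 3.35 and 3.64 without. The groups did not overlap, but the gap between the highest DOX mouse and the lowest mouse without DOX was narrow. The log2 difference was -0.29 ± 0.14 (SE) and did not pass (limma, adjusted p = 0.306), and it was -0.18 without no DOX replicate 3. Notch2, which basal and suprabasal keratinocytes also use, read 1.89, 1.78 and 2.25 with DOX and 2.18, 2.16 and 2.39 without. Here DOX replicate 3 lay above 2 of the 3 mice without DOX, and the log2 difference was -0.27 ± 0.15 (adjusted p = 0.391). A dimmer Notch2 probe was called well above background on 0 of 3 DOX arrays and on 2 of 3 arrays without DOX, and it was not tested. Notch4, a receptor gene of endothelium, read -0.63, -0.57 and -0.72 with DOX and -0.29, -0.50 and -0.83 without. The DOX values lay inside the range of the others. Its log2 difference of -0.10 ± 0.16 (adjusted p = 0.789) had a 95% interval from -0.47 to 0.27, which spans changes in both directions, and without no DOX replicate 1 it turned to 0.03.

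Of the 4 ligand genes, Dll1 had the smallest p of the 10 genes. Dll1 encodes a Delta ligand, which in human epidermis is known from clusters of basal stem cells. It read -1.64, -1.45 and -1.27 in DOX replicates 1 to 3 and -0.95, -0.80 and -0.88 in no DOX replicates 1 to 3. Each DOX mouse was lower than each mouse without DOX. The log2 difference was -0.58 ± 0.13 (SE), a ratio of 0.671 with a 95% interval from 0.543 to 0.828, and it did not pass (limma, unadjusted p = 0.00312, adjusted p = 0.103). Under normexp correction the difference was -0.37 (limma, adjusted p = 0.0827). Normexp was run with an offset of 50 added to each signal, which makes the log2 differences of dim probes smaller. Of all tested probes, 3.02% had a smaller p.

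The Dll1 probe is printed 10 times on each array, so the error between spots of 1 array could be read. That error holds no labelling or hybridisation error. The SD between its spots on 1 array was 0.0892 to 0.173 on the log2 scale. The array means, each over 9 or 10 spots after 1 outlier was left out, had an SD of 0.18 among DOX mice and 0.08 among mice without DOX. The spots of DOX replicate 1 read signals of 66.1 to 84.9 and those of DOX replicate 3 read 95 to 115. These ranges do not overlap, while those of DOX replicate 2, at 78.4 to 118, overlapped both. In mice without DOX the lowest spots were 119, 132 and 103 and the highest 168, 163 and 154. Their ranges overlap one another. The other 9 genes have 1 spot per probe and no such check, and the scanner's own error estimate for the tested probes was 10% to 18% of the signal, highest for Dll4.

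**Figure D2:**
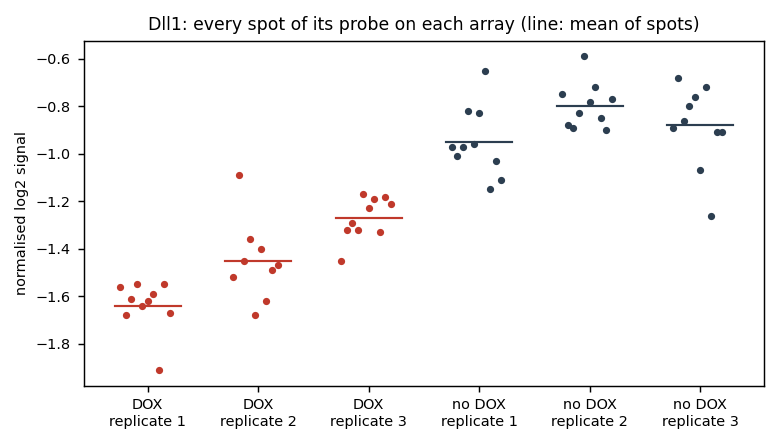
Normalised log2 signal of each spot of the Dll1 probe on each array, DOX arrays on the left. Points are spots, with the 1 outlier spot of DOX replicate 2 left out, and lines are array means, which lie between -1.64 and -1.27 with DOX and between -0.95 and -0.80 without.

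Jag1, a Jagged ligand gene of basal epithelium and endothelium, read 0.92, 0.76 and 1.00 with DOX and 1.27, 1.16 and 1.62 without. The groups did not overlap, and no DOX replicate 3 was the highest mouse. The log2 difference was -0.46 ± 0.15 (SE), a ratio of 0.728 with a 95% interval from 0.568 to 0.935 (limma, unadjusted p = 0.0202, adjusted p = 0.190). Jag2, the other Jagged ligand gene of the epithelium, read 1.1, 0.91 and 0.94 with DOX and 0.94, 1.05 and 1.31 without. These groups overlapped, the highest DOX mouse lying above 2 of the mice without DOX, and the difference was -0.11 ± 0.13 (adjusted p = 0.702), with a 95% interval from -0.43 to 0.20. Dll4, the Delta ligand gene of sprouting endothelium, had low processed signals of 24.8, 25.6 and 17.6 with DOX and 33.5, 30.1 and 23.5 without. It was well above background on all 6 arrays, and DOX replicates 1 and 2 lay above no DOX replicate 3. Its log2 difference was -0.37 ± 0.20 (adjusted p = 0.375), and it was -0.18 without DOX replicate 3 and -0.11 under normexp correction. The normexp offset makes differences at signals this low smaller.

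Both target genes overlapped between the groups. Hes1, a repressor gene that Notch switches on in many tissues, read -0.22, -0.55 and -0.01 with DOX and -0.29, 0.14 and 0.64 without. No DOX replicate 1 fell among the DOX mice, and the spread without DOX was the widest of the 10 genes in that group (SD 0.47). The log2 difference was -0.42 ± 0.26 (adjusted p = 0.436), with a 95% interval from -1.04 to 0.20, and it was -0.18 without no DOX replicate 3. Hey1, a related repressor gene of endothelium, read -0.29, 0.06 and -0.73 with DOX and -0.01, -0.13 and -0.30 without. The DOX mice held both the highest and the lowest value. Its difference was -0.18 ± 0.21 (adjusted p = 0.707), and without DOX replicate 3 it turned to 0.03.

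**Figure D3:**
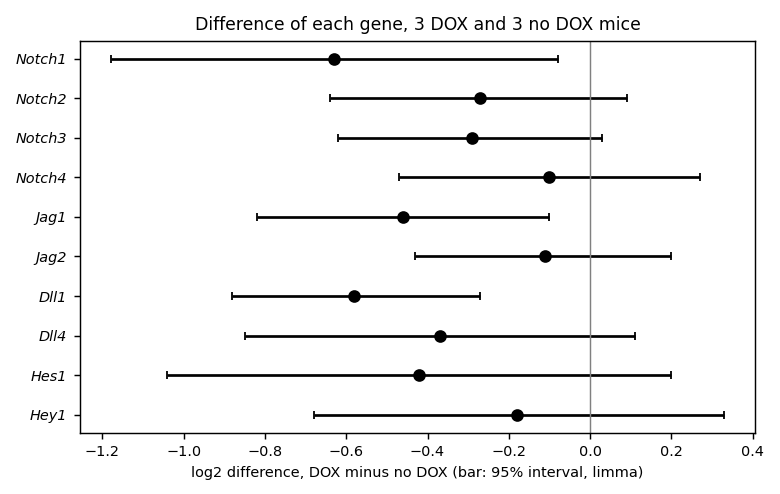
Log2 difference of each gene, DOX minus no DOX, with its 95% interval from the limma fit. Points lie between -0.63 for Notch1 and -0.10 for Notch4, and the intervals of Notch1, Jag1 and Dll1 do not reach 0 before adjustment for multiple testing.

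The 10 genes did not vary together from mouse to mouse. Replicate 3 was the highest mouse of its group for Notch2, Notch3, Jag1 and Hes1, both with and without DOX. Replicate 3 was the lowest mouse of its group for Notch4, Dll4 and Hey1, again in both groups. The endothelial, mural, skeletal muscle and fibroblast marker lists were each lowest in replicate 3 of both groups. This order was thus not particular to endothelium. In the array means given here each gene is centred on its own mean over the arrays. The endothelial list gave -0.01, 0.20 and -0.32 with DOX and 0.19, 0.21 and -0.27 without. The skeletal muscle list gave 0.02, 0.28 and -0.16 with DOX and -0.09, 0.28 and -0.33 without. The fibroblast list gave -0.25, 0.31 and -0.37 with DOX and 0.29, 0.06 and -0.04 without. The mural list gave -0.08, 0.24 and -0.25 with DOX and 0.27, 0.14 and -0.32 without, although the mural receptor gene Notch3 was highest in replicate 3. The basal keratinocyte list gave 0.08, -0.20 and -0.17 with DOX and -0.02, 0.01 and 0.30 without. The part of these cell types in the Notch values was not tested.

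The other cell type markers are given beside the Notch genes. Of 10 endothelial markers 6 had a higher and 4 a lower mean with DOX and 0 passed (limma, 1 at an unadjusted p under 0.05), and their array means ran from -0.20 to 0.32 with DOX and from -0.15 to 0.33 without. The list medians were 0.01 for endothelium, -0.11 for mural cells, -0.24 for basal and -0.06 for suprabasal keratinocytes. Of the 8 mural markers 6 had a lower mean with DOX, as had 6 of the 8 suprabasal markers. The medians were 0.10 for skeletal muscle, -0.04 for fibroblasts, -0.08 for Schwann cells and 0.16 for macrophages. In these 4 lists 0 markers passed, and likewise in the mural and suprabasal lists. Of 7 basal keratinocyte markers 5 had a lower and 2 a higher mean with DOX, 0 passed (2 at an unadjusted p under 0.05) and 4 did not overlap between the groups, all 4 lower. Of all tested probes, 12.7% did not overlap and were lower, and 9.62% were lower at an unadjusted p under 0.05 (limma). The integrin gene Itga6 was at -0.49 ± 0.13 (limma, adjusted p = 0.133) and Col17a1, a hemidesmosome collagen gene, at -0.47 ± 0.17 (adjusted p = 0.210), both named after their values were seen. The 2 with a higher mean were the basal keratin genes Krt14, at 0.43 ± 0.35 (adjusted p = 0.562), and Krt5, at 0.06 ± 0.15 (adjusted p = 0.882). For 2 lists the array means did not overlap between the groups, and both lists hold markers tested only through the group where they are high. The 5 tested salivary gland markers averaged 3.87 to 4.96 on the DOX arrays and -1.04 to 2.10 on the others. All 5 had a higher mean with DOX and 0 of 5 passed (limma, 5 at an unadjusted p under 0.05, beside 18.8% of all tested probes). Of these, Car6 was well above background on 3 of 3 DOX arrays and 2 of 3 no DOX arrays, so it was tested only through the group where it is high. Another listed gland gene, Smr3a, was not well enough above background to be tested. The 5 T cell markers averaged -2.06 to -1.74 with DOX and -1.24 to -1.11 without, and 4 had a lower and 1 a higher mean with DOX. Cd4, a co-receptor gene of helper T cells, was at 0.31 ± 0.13 (limma, adjusted p = 0.262) and Cd3e, a chain of the T cell receptor complex, at -0.04 ± 0.10, while Cd3d, of the same complex, was at -0.71 ± 0.32 (adjusted p = 0.290). Cd8a, a co-receptor gene of cytotoxic T cells, and Cd247, another chain of the receptor complex, were past the threshold as lower (limma, adjusted p = 0.0241 and 0.0166). Both were well above background on 0 of 3 DOX arrays and 3 of 3 no DOX arrays, so they were tested only through the group where they are high, and they weigh on the list's array means. Their log2 differences of -1.94 and -1.51 were -0.25 and -0.20 under normexp correction, where neither passed (limma, adjusted p = 0.120 and 0.178). The normexp offset of 50 makes differences of such dim probes smaller, so part of that drop is built in. No fold is given, as neither was well above background with DOX. With 1 mouse left out, Cd8a passed only without DOX replicate 1 and Cd247 only without DOX replicate 2. Over all alternatives that tested them, the adjusted p ran from 0.0214 to 0.120 for Cd8a and from 0.0102 to 0.178 for Cd247. The part of gland or T cells in the Notch values was not tested.

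**Figure D4:**
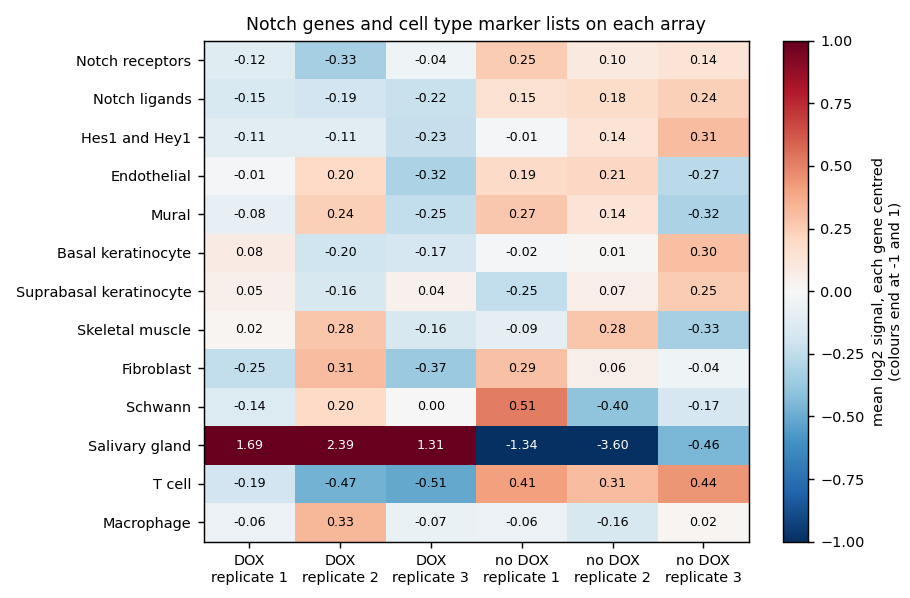
Mean log2 signal of the Notch receptors, the Notch ligands, Hes1 with Hey1, and 10 cell type marker lists on each array, each gene centred on its own mean, with DOX arrays on the left. Colours end at -1 and 1 and the numbers are the values. The receptor and ligand rows are below 0 on the 3 DOX arrays and above 0 on the others, as is the T cell row, and the salivary gland row runs the other way. The T cell row includes Cd8a and Cd247, and the salivary gland row Car6, each tested only through the group where it is high.

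The rest of the pathway was read through 53 genes in 6 role lists, of which 47 were tested. Of these, 46 were well above background on all 6 arrays, and Ncstn was tested only through the group where it is high. The counts below include Ncstn. With DOX 0 rose and 0 fell (limma, smallest adjusted p = 0.0802), while 11 of 47 had an unadjusted p under 0.05, beside 18.8% of all tested probes. The mean was lower in 33 and higher in 14, where 51% of all tested probes and 48.6% of tested genes with a symbol had a lower mean. The median log2 difference of the 47 was -0.09. Under normexp background correction and with array weights 1 of the 47, Dlk2, passed as lower.

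Further ligand genes gave the smallest p-values. Dlk2, whose product is a Delta-like protein without the domain that activates Notch and which marks basal keratinocytes, averaged 0.94 ± 0.07 with DOX and 1.55 ± 0.13 without (SD, n = 3 each). The log2 difference was -0.61 ± 0.11 (SE, adjusted p = 0.0802), and the gene passed under normexp correction at -0.56 (adjusted p = 0.0394) and when arrays were weighted at -0.60 (adjusted p = 0.0470). Over all alternatives its adjusted p ran from 0.0394 to 0.239. The alternative named for the mean of a gene's tested probes returned the value of the brightest probe, so it is no check on Dlk2. Its paralogue Dlk1 averaged 0.25 ± 0.12 with DOX and 0.90 ± 0.16 without (SD, n = 3 each), a difference of -0.65 ± 0.13 (SE, adjusted p = 0.0893). A second tested probe of each lay on the same side, at -0.43 for Dlk2 and -0.78 for Dlk1. Dll3, a ligand that inhibits Notch from within the same cell, was at 0.35 ± 0.18, and Dner was below the filter.

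Of 10 genes that activate ligands or modify receptors, 5 had a higher and 5 a lower mean, 0 passed, and the median was 0.01. The smallest p-values were those of Mfng, a fringe sugar transferase that changes which ligand a receptor prefers (-0.53 ± 0.18, adjusted p = 0.199), and Furin, the protease that matures the receptor (0.32 ± 0.14, adjusted p = 0.273). Of 9 cleavage genes 7 were tested, 5 of them with a lower mean, with a median of -0.04. Ncstn, the gamma-secretase subunit nicastrin, was at -0.36 ± 0.15 (adjusted p = 0.266). It was well above background on 2 of 3 DOX arrays and 3 of 3 no DOX arrays, so it was tested only through the group where it is high. Its difference was -0.05 under normexp correction, whose offset makes differences of dim probes smaller. It was -0.10 with the slide row as a block, which rests on DOX replicate 1 alone. Adam10, the protease of the first cut, was at -0.20 ± 0.12, and ran from -0.26 to -0.11 over the alternatives.

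In the nuclear complex 9 of 13 genes had a lower and 4 a higher mean, with a median of -0.10. Maml3, a Mastermind coactivator gene, averaged 0.17 ± 0.34 with DOX and 0.96 ± 0.24 without (SD, n = 3 each), a difference of -0.79 ± 0.21 (SE, adjusted p = 0.135), and its other tested probe was at -0.67. Tle2, a Groucho corepressor gene whose product Hes proteins recruit, was at -0.51 ± 0.14 (adjusted p = 0.140), with another probe at -0.73. Among inhibitors and turnover genes 8 of 10 had a lower mean, with a median of -0.16. The smallest p-values there were those of Egfl7, a secreted endothelial protein that can antagonise Notch (-0.67 ± 0.18, adjusted p = 0.136), and Numbl, an adaptor that lowers surface Notch (-0.36 ± 0.10, adjusted p = 0.153). Of the 7 further Hes and Hey genes 4 were tested, and all 4 had a lower mean, with a median of -0.40. They were led by Hes6 (-0.48 ± 0.17, adjusted p = 0.220) and Hes2 (-0.41 ± 0.22, adjusted p = 0.378). Over the alternatives Hes2 ran from -0.63, with the slide row as a block, to -0.21. Hes3, Hes5 and Hey2 were below the filter, so 2 of the 3 genes whose promoter windows held GTGGGAA, Hes5 and Hey2, gave no difference to read, and Hes7 was at -0.04 ± 0.13.

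**Figure D5:**
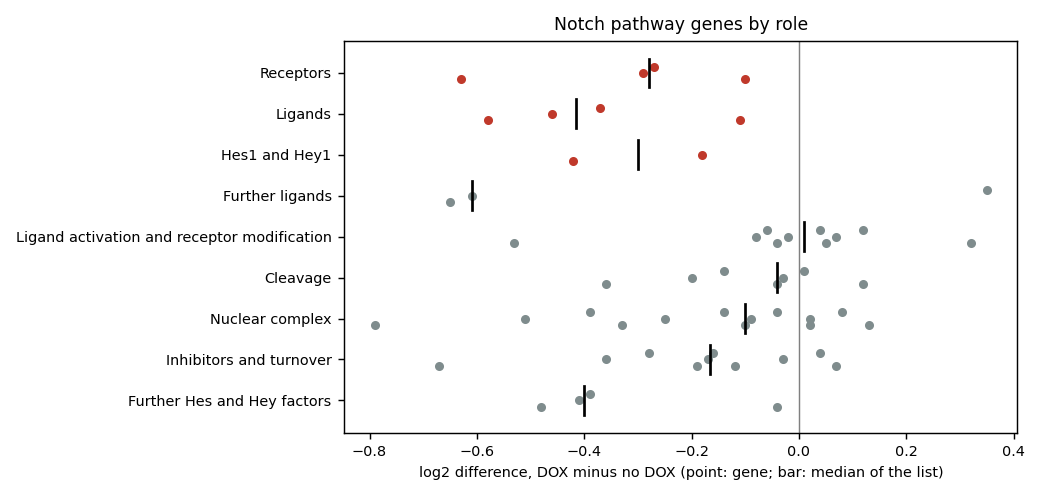
Log2 difference, DOX minus no DOX, of each tested Notch pathway gene by role, with the 10 genes of the report in the upper 3 rows. Points are genes and bars list medians, which run from -0.61 for the 3 further ligands to 0.01 for the genes that activate ligands or modify receptors.

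For each of the 10 genes, the gene with a symbol whose values over the 6 arrays were most like its own was found by Pearson's r, as a description with no test. The closest of 15204 was Ptchd3 for Notch1 (r = 0.997), Trappc6a for Notch2 (0.998), P3h4 for Notch3 (0.994) and Armcx2 for Notch4 (0.989). For the ligands it was the beta-catenin gene Ctnnb1 for Jag1 (0.994), Capn1 for Jag2 (0.997), Zfp212 for Dll1 (0.997) and Psd for Dll4 (0.995), and for the targets Ccndbp1 for Hes1 (0.996) and Jam3 for Hey1 (0.997). With 6 arrays such values are common, since between 21 genes (for Notch4) and 181 genes (for Dll1) had an r above 0.95.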

How the data were processed

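Gene expression was measured in tongue RNA of 6 mice. Each deposited scanner file gives the intensity of every spot on a linear scale. Per the file headers and the submitters' processing notes, Agilent Feature Extraction 11.5.1.1 made them and took off the background. The authors' value table equals that intensity multiplied by 1 factor per array (3.70 to 3.99), with column medians of 90.0, 97.5 and 93.7 for DOX replicates 1 to 3 and 103, 94.2 and 92.7 for no DOX replicates 1 to 3, so it is linear and uncentred. How these factors were set is not stated there.

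Outlier spots (146 to 195 per array) were left out, log2 signals of a probe's spots were averaged, and the 75th percentile of the array was then taken off. Probes were named by accession through a RefSeq table of GRCm38.p6 (28331 of 55681 matched 1 symbol). The arrays were annotated on mm9 per the file headers, so gene coordinates are not given. Probes well above background on all 3 arrays of a group were tested (30935, among them 10 of the 12 Notch probes, 1 per gene) with limma 3.58.1 in R 4.3.3, two-sided, with Benjamini-Hochberg adjustment at 0.05. Where a gene had several tested probes the brightest stood for it. Values after ± are standard errors for differences and SDs for group means.

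Groups came from the treatment label and replicate numbers from the titles. All arrays lay on 1 slide with 1 scan, DOX replicates 2 and 3 in row 2 and the others in row 1. Row 2 thus held DOX mice only, so slide row and DOX cannot be fully told apart. The Notch genes, role lists and markers were chosen with earlier results of these data known. All 10 genes are named, and of each role list the 2 with the smallest p. Normexp used the median signal and an offset of 50. The fit was tested on simulated data with 200 probes changed at each size. It recovered 7.5% of log2 changes of 0.5, 61% of changes of 1 and 88% of changes of 2. Missing the threshold therefore does not show that a Notch gene was unchanged.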

Additional observations from a re-analysis of the deposited data

How the results depend on the processing

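The count of Notch genes that passed was 0 of 10 under all 17 alternatives, of which 2 could not alter it, the mean of a gene's tested probes (each gene has 1) and the value table (1 factor per array), with a smallest adjusted p of 0.0558 (Dll1 with array weights). The log2 difference of Dll1 ran from -0.76 to -0.37, of Notch1 from -0.74 to -0.42, of Notch2 from -0.41 to -0.18, of Notch3 from -0.38 to -0.18, of Jag1 from -0.55 to -0.32, of Dll4 from -0.50 to -0.11 and of Hes1 from -0.64 to -0.18. Direction turned in 3 of the 10. With 1 array left out Notch4 ran from -0.24 to 0.03, the highest without no DOX replicate 1, and Hey1 from -0.37 to 0.03, the highest without DOX replicate 3. Jag2 was at 0.01 with the slide row as a block, an alternative chosen after seeing the data. That block leaves DOX replicate 1 as the only DOX mouse compared, and the -0.76 of Dll1 also comes from it. Of the further pathway genes 1 passed with normexp and 1 with array weights, in both cases Dlk2. The mean of a gene's tested probes left Dlk2, Dlk1, Maml3, Tle2 and Mfng at the value of their brightest probe, so it checked none of them. The count of all probes that passed, 124, was 283 with normexp, 224 with trend and robust settings, 567 with array weights, 37 with the slide row as a block and 1 with no filter on dim probes. It was 0 with the replicate block, and 3 to 60 when 1 array was left out, the lowest without no DOX replicate 1 or no DOX replicate 2. The cause was not tested. The shared replicate numbers were not taken to pair the mice: deviations of same-numbered mice correlated at -0.11, -0.01 and 0.01. For Notch2, Notch3, Jag1, Hes1, Notch4, Dll4 and Hey1, replicate 3 was nonetheless the highest or the lowest mouse of both groups. The replicate block takes off what same-numbered mice share, and it is a weak check where the numbers do not pair mice. The smallest adjusted p of the Notch genes was 0.189 under this block (limma). Leaving out 1 array tests the others on 5 mice. Signal over background limits Dll4 and the dim probes of Notch1 and Notch2.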
